A study of Mus musculus with 6 samples.

Results

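Centromere, kinetochore and condensin genes were examined in RNA of pancreatic islets from pregnant and nonpregnant mice. The members were all genes whose symbol begins with Cenp or Ncap, together with 20 further symbols of kinetochore, spindle checkpoint, chromosomal passenger and condensin genes. They came to 43 of the 19940 genes measured. Ska3 was not among the symbols in the table used here. Pregnant islets came from C57BL6/J mice at gestational day 14.5 (3 samples), and nonpregnant islets came from animals of the same strain that the labels call littermates (3 samples). Islets were hand-picked after digestion of the pancreas with a Liberase TL and DNase I solution. The age of the animals is not given in the labels, and whether a sample was 1 animal or a pool is not stated. The design text names 5 animals in each group. Each gene has 1 authors' mean of reads per group and the result of a test run by the authors, and the spread between samples is therefore not shown for any value. Summed over all genes, the group means came to 87654449 reads in pregnant and 84493872 in nonpregnant islets.

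The kinetochore is the protein assembly that joins a chromosome to the spindle during cell division. Its inner layer sits on centromeric chromatin, which is marked by the histone H3 variant CENP-A, and is built from CENP proteins. Its outer layer binds microtubules through the KNL1, MIS12 and NDC80 complexes, and it carries the spindle checkpoint, which holds back anaphase until all chromosomes are attached. The chromosomal passenger complex corrects faulty attachments, and the condensins are ring-shaped ATPases that compact chromosomes for division. Beta cells of the adult islet divide rarely, and in rodents they divide more often during pregnancy.

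Most of these genes were higher in pregnant islets. Genes were called at an adjusted p under 0.05. By the authors' deposited table, 29 of the 43 members (67.4%) rose, against 7.57% of all genes, and 1 member fell, against 4.15% of all genes. The median log2 ratio (pregnant over nonpregnant) was 1.03 over the 43 members and -0.02 over all 19940 genes by the authors' deposited table. Folds of the 29 rising genes ran from 1.41 for Incenp to 6.51 for Bub1 by the authors' deposited table. A log2 ratio of 1 or more was reached by 22 members (51.2%) as rises, against 2.56% of all genes. The member that fell was Mis12, and 13 members were not called. In RNA of whole islets, more dividing cells and more transcript per cell cannot be told apart.

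**Figure D1:**
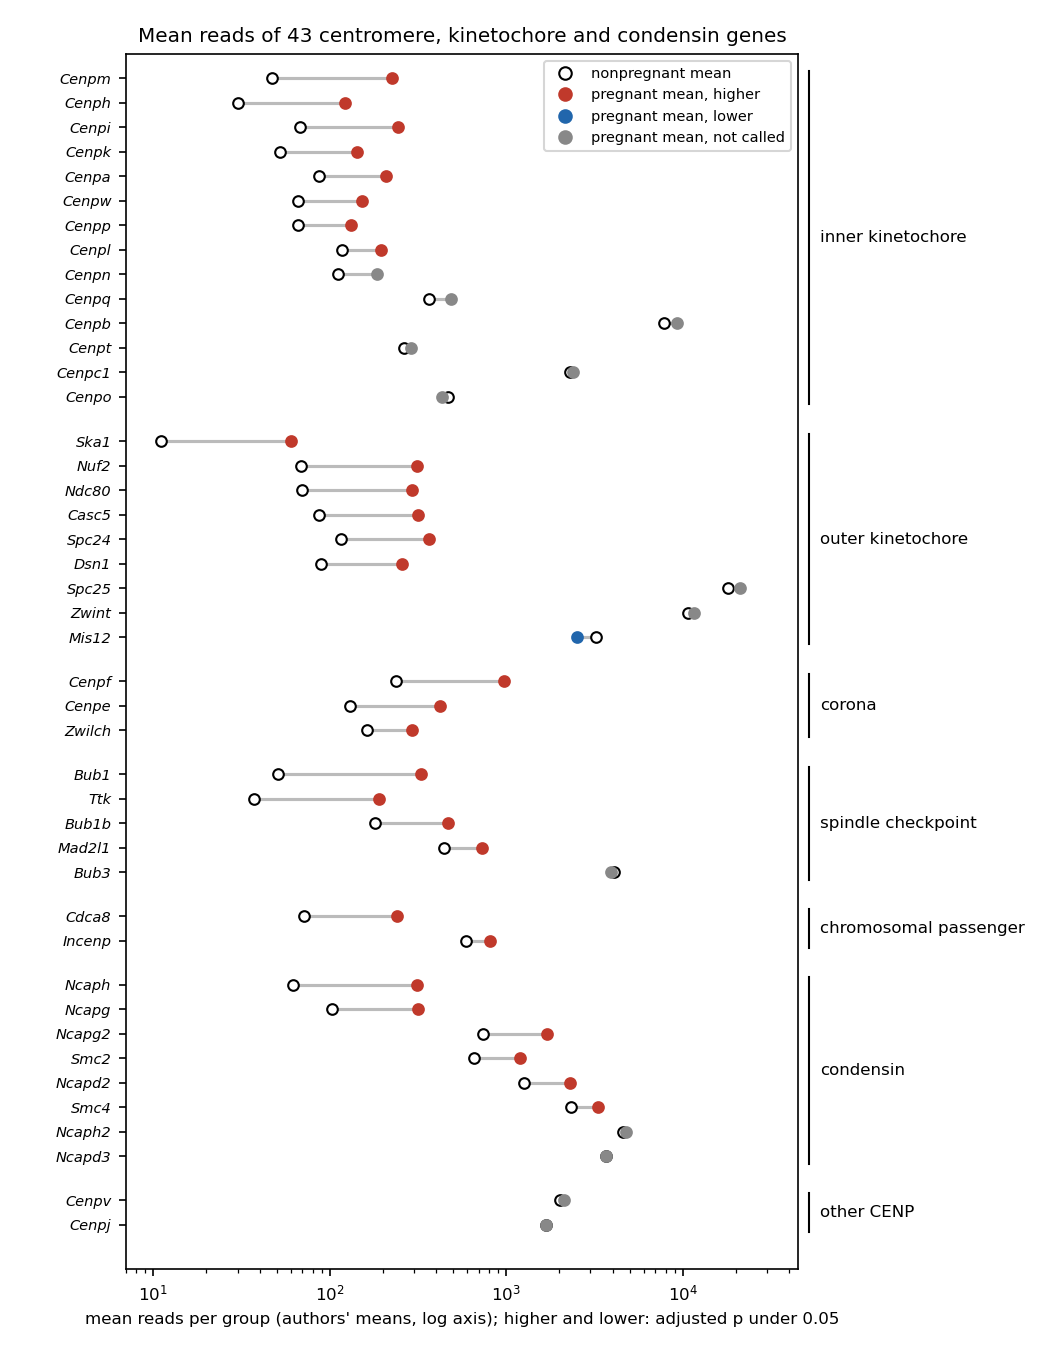
The authors' mean reads (log axis) of each of the 43 members are shown for nonpregnant (open circle) and pregnant islets (filled circle, coloured by the call at an adjusted p under 0.05), grouped by role; each circle is 1 group mean without error. Genes with few nonpregnant reads, such as Bub1 (51 reads) and Ttk (37 reads), show long lines, while Spc25, Zwint and Cenpb, with 18167, 10720 and 7868 nonpregnant reads, show short ones.

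Promoter sequences were available in RefSeq (build GRCm38.p6) for 37 of the 43 members. Casc5, Incenp, Ska1, Smc4, Spc24 and Zwilch had no entry. Many promoters of mitotic genes are known to carry CCAAT boxes, bound by NF-Y, and the cell cycle genes homology region (CHR), bound by the DREAM and MuvB complexes, while genes of the G1/S transition often carry E2F sites. Both strands of the 250 bases before each annotated start were searched for CCAAT, for the CHR spelled TTTGAA, or in its palindromic form spelled TTCGAA, and for E2F words of the form TTNNCGC in which each N was C or G. Matches of different motifs were allowed to share bases. A CCAAT box was found in 20 of 37 members (54.1%) and in 37.5% of the 27025 genes with a RefSeq promoter. The CHR was found in 12 members (32.4%) and in 19.6% of all those genes, and an E2F word in 9 members (24.3%) and in 9.01%. Among the 10675 of these genes with at least 10 mean reads in the islets, the shares were 40.2% for CCAAT, 14.8% for the CHR and 15.3% for E2F. The 23 rising members with a promoter held a CCAAT box in 14 cases and the CHR in 8, and the 13 members that were not called held them in 5 and 4. With the 50 bases after the start included, the CHR count moved to 19 of 37 members (51.4%, against 21.7% of all genes), to 14 of the 23 rising members and to 5 of the 13 that were not called. An E2F word was then found in 14 of 37 (37.8%, against 10.9%), in 9 of the 23 and in 5 of the 13. A CCAAT box was then found in 23 of 37 (62.2%, against 41.1%). Among the 10675 genes with at least 10 mean reads, the shares in this wider window were 42.7% for CCAAT, 16.4% for the CHR and 18.3% for E2F. These matches describe letters only, and genes with several annotated starts had more than 1 chance to match.

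The following windows show how the letters lie in 4 rising members and in Spc25, which was not called. Bub1b and Ttk are spindle checkpoint genes, Cenpf is of the corona and Smc2 of the condensins. They were chosen from members whose window holds no annotated exon and, after the search, for holding a CCAAT box. Of the 9 rising members with such a window, the other 5 (Cenph, Cenpi, Mad2l1, Ncaph and Nuf2) held no match to any of the motifs. Capitals mark the matches to the CCAAT box and to the CHR. A CCAAT box on the other strand reads ATTGG. A CHR on the other strand can read TTCAAA.
Bub1b, chr2:118597961-118598210, strand +: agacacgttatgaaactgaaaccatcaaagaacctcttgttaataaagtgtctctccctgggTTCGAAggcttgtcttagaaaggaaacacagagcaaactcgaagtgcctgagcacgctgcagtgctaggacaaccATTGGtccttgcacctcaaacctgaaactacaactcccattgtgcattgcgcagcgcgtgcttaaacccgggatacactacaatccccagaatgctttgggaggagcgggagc
Ttk, chr9:83834439-83834688, strand +: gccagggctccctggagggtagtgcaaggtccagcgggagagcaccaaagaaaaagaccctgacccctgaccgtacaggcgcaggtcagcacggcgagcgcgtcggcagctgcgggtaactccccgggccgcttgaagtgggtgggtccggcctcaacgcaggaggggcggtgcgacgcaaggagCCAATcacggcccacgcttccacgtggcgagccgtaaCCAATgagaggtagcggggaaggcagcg
Cenpf, chr1:189688087-189688336, strand -: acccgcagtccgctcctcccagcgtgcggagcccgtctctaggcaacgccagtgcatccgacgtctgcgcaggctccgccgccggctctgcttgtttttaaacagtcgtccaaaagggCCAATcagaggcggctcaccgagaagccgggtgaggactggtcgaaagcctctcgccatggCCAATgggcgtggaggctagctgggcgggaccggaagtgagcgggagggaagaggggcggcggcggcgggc
Smc2, chr4:52438971-52439220, strand +: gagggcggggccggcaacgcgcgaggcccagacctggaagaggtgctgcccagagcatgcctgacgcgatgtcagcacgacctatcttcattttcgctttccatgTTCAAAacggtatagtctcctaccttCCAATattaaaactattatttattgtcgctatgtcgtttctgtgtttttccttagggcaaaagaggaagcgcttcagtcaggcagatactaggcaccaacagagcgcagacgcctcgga
Spc25, chr2:69206214-69206463, strand -: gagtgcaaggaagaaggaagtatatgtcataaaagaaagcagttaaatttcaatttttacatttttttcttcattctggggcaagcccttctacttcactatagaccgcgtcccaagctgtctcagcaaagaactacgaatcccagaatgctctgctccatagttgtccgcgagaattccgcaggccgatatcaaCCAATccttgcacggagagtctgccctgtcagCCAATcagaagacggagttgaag
The last base of the nearest CCAAT match lay 109 bases before the start in Bub1b, 24 in Ttk, 67 in Cenpf, 115 in Smc2 and 19 in Spc25. Bub1b and Smc2 also held a CHR match, 183 and 140 bases before the start. None of these 5 windows held an E2F word.

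In the inner kinetochore, 8 of 14 members rose at the adjusted p of 0.05 by the authors' deposited table (10 at an unadjusted p under 0.05), and 0 fell at either bound. Their median log2 ratio was 0.90. Cenpm had an authors' mean of 47 reads in nonpregnant and 225 in pregnant islets, a rise of 4.83-fold by the authors' deposited table (authors' adjusted p = 1.64e-17). Cenpm (ENSMUSG00000068101) spans bases 82233779 to 82244748 of chromosome 15 in GRCm38, read from the minus strand. Its partners Cenph, Cenpi and Cenpk, which form a subcomplex of the constitutive centromere network with CENP-M, rose 4.03-fold, 3.61-fold and 2.78-fold by the authors' deposited table. Thus all 4 genes of that subcomplex were called, each from fewer than 100 nonpregnant reads. Cenpa itself, the gene of the histone variant, went from 87 to 208 reads, a rise of 2.44-fold by the authors' deposited table (authors' adjusted p = 9.27e-05).

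The other inner subcomplexes were mixed. Cenpw, a histone-fold protein that binds DNA together with CENP-T, rose 2.33-fold by the authors' deposited table (66 to 152 reads, adjusted p = 0.0247). Cenpt stood at 265 and 287 reads, 1.11-fold by the authors' deposited table, and was not called (authors' adjusted p = 0.772). The remaining pair of that histone-fold unit, CENP-S and CENP-X, appear as Apitd1 and Stra13, and these rose 1.63-fold and 1.37-fold by the authors' deposited table. Cenpl and Cenpn, which form a dimer that recognises CENP-A nucleosomes, had nearly the same fold by the authors' deposited table, 1.70 and 1.69. Only Cenpl was called (authors' adjusted p = 0.00849, against 0.121 for Cenpn by the authors' deposited table), and whether the pair differs was not tested.

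Of the CENP-O, P, Q, U and R unit, a peripheral unit of the inner network, only Cenpp was called. It went from 66 to 132 reads, a 2.05-fold rise by the authors' deposited table (authors' adjusted p = 0.00241). Cenpq stood at 1.36-fold, Mlf1ip (CENP-U) at 1.37-fold, Itgb3bp (CENP-R) at 1.12-fold and Cenpo at 0.95 by the authors' deposited table, all without passing (authors' adjusted p = 0.271, 0.391, 0.541 and 0.975). Cenpo shares 19.0% of its exon bases with Adcy3 on the opposite strand and Cenpp 12.3% with Ippk, so their reads are uncertain if counting ignored strand. Cenpc1, which encodes the protein that bridges CENP-A chromatin and the outer kinetochore, had 2284 and 2389 reads, 1.07-fold by the authors' deposited table (authors' adjusted p = 0.744). Cenpb, which binds a short DNA box in centromeric satellites, had 7868 and 9237 reads, 1.20-fold by the authors' deposited table (authors' adjusted p = 0.0745). Cenpb and Cenpc1 were the inner kinetochore genes with the most reads, and neither was called.

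At the outer kinetochore, 6 of 9 members rose, 1 fell and 2 were not called by the authors' deposited table. Ska1, of the SKA complex that follows shortening microtubules, went from 11 to 60 reads, a 5.17-fold rise by the authors' deposited table (authors' adjusted p = 6.05e-06). The nonpregnant mean behind that fold is the lowest of all 43 members. Of the NDC80 complex, the rod that grips the microtubule, Nuf2 went from 69 to 311 reads and Ndc80 from 70 to 294 reads by the authors' deposited table. These were rises of 4.55-fold and 4.24-fold by the authors' deposited table (authors' adjusted p = 2.3e-21 and 3.19e-10). Spc24 went from 116 to 364 reads, a 3.22-fold rise by the authors' deposited table (authors' adjusted p = 8.2e-16).

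Spc25, the fourth subunit of the same rod, behaved differently in level. It had 18167 nonpregnant and 21136 pregnant reads, 1.19-fold by the authors' deposited table, and was not called (authors' adjusted p = 0.484). As reads per kilobase of exon scaled to the summed mean reads (RPKM), its nonpregnant level was 67.4, against 0.128 for Ndc80, 0.129 for Nuf2 and 0.534 for Spc24. Spc25 alone held 26.9% of the reads of all 43 members in nonpregnant islets and 26.1% in pregnant islets. Spc25 (ENSMUSG00000005233) spans bases 69193895 to 69206194 of chromosome 2 in GRCm38, read from the minus strand. The next gene, 4878 bases away on the plus strand, is G6pc2, which encodes an islet-specific glucose-6-phosphatase catalytic subunit. G6pc2 had 275838 nonpregnant and 355666 pregnant reads and rose 1.32-fold by the authors' deposited table (authors' adjusted p = 0.0152). Whether reads from the G6pc2 locus entered the Spc25 value was not tested. No annotated exon of another gene overlaps those of Spc25.

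Casc5, which encodes the KNL1 scaffold for checkpoint proteins, went from 87 to 317 reads, a 3.72-fold rise by the authors' deposited table (authors' adjusted p = 2.65e-17). Its partner Zwint had 10720 and 11619 reads, 1.11-fold by the authors' deposited table, and was not called (authors' adjusted p = 0.434). Zwint is also known as a SNAP25 interactor expressed in neurons. Dsn1, of the MIS12 complex that links the inner to the outer layer, rose 2.94-fold from 89 to 258 reads by the authors' deposited table (authors' adjusted p = 2.38e-08). Mis12, the name-giving subunit, fell from 3245 to 2520 reads, to 0.80 of its nonpregnant level by the authors' deposited table (authors' adjusted p = 0.0284). That call is lost at an adjusted p of 0.01, and 7.69% of the Mis12 exon bases are shared with Derl2 on the opposite strand, which stood at 0.84 by the authors' deposited table (authors' adjusted p = 0.0917). The other subunits of this complex, Pmf1 and Nsl1, were at 1.88-fold (called) and 1.32-fold (not called) by the authors' deposited table.

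All 3 members of the corona, the outermost fibrous layer that captures microtubules, rose by the authors' deposited table. Cenpf, a large microtubule-binding protein gene, went from 237 to 976 reads, a 4.21-fold rise by the authors' deposited table (authors' adjusted p = 1.57e-12). Cenpe, the gene of a kinesin motor that moves chromosomes to the spindle equator, went from 130 to 419 reads, a 3.29-fold rise by the authors' deposited table (authors' adjusted p = 0.00193). Zwilch, of the complex that recruits dynein and the MAD proteins, went from 163 to 294 reads, a 1.84-fold rise by the authors' deposited table (authors' adjusted p = 0.000144). Of its partners, Kntc1 rose 3.16-fold and Zw10 stood at 0.87 without a call by the authors' deposited table.

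Spindle checkpoint members rose in 4 of 5 cases, with a median log2 ratio of 1.40 by the authors' deposited table. Bub1, a kinase that marks centromeric histone H2A, had the largest log2 ratio of the 43 members. Its mean went from 51 to 327 reads, a 6.51-fold rise by the authors' deposited table (authors' adjusted p = 1.67e-30). Bub1 (ENSMUSG00000027379) spans bases 127801122 to 127831865 of the same chromosome as Spc25, also read from the minus strand. Ttk, which encodes the MPS1 kinase that starts checkpoint signalling, went from 37 to 190 reads, a 5.18-fold rise by the authors' deposited table (authors' adjusted p = 2.3e-06). Bub1b, the gene of the checkpoint inhibitor BUBR1, and Mad2l1, that of MAD2, rose 2.64-fold and 1.68-fold by the authors' deposited table (180 to 465 and 444 to 728 reads). Bub3, a WD40 protein that carries BUB1 and BUBR1 to the kinetochore, had 4101 and 3941 reads, 0.98 by the authors' deposited table, and was not called (authors' adjusted p = 0.987). Bub3 was thus the checkpoint member with the most reads in both groups and the one that was not called. Mad1l1, a checkpoint gene outside the 43, had 1128 nonpregnant and 1099 pregnant reads and was not called either.

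Both chromosomal passenger members rose. Cdca8, the gene of borealin, went from 71 to 241 reads, a 3.42-fold rise by the authors' deposited table (authors' adjusted p = 1.78e-09). Incenp, the scaffold of the complex, went from 591 to 814 reads, a 1.41-fold rise by the authors' deposited table (authors' adjusted p = 0.00494). The other subunits, survivin (Birc5) and the kinase Aurkb, rose 5.37-fold and 6.60-fold by the authors' deposited table, so all 4 genes of the complex were called.

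Condensin genes rose in 6 of 8 cases, with a median log2 ratio of 0.89 by the authors' deposited table. Smc2 and Smc4, the ATPase subunits shared by both condensins, went from 657 to 1191 and from 2314 to 3292 reads, rises of 1.86-fold and 1.46-fold by the authors' deposited table (authors' adjusted p = 5.1e-10 and 0.000204). The subunits found only in condensin I, which acts after the nuclear envelope breaks down, rose in 3 of 3 cases. Ncaph went from 62 to 310 reads, a 5.07-fold rise by the authors' deposited table (authors' adjusted p = 1.69e-21). Ncapg went from 103 to 317 reads, a 3.13-fold rise by the authors' deposited table (authors' adjusted p = 2.24e-13), and 13.4% of its exon bases are shared with Lcorl on the opposite strand. Ncapd2 went from 1268 to 2289 reads, a 1.85-fold rise by the authors' deposited table (authors' adjusted p = 3.31e-12). It shares 3.78% of its exon bases with Scarna10 and 3.75% with Gm28967, both on the same strand.

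Of the subunits found only in condensin II, which is present in the nucleus throughout the cell cycle, 1 of 3 rose. Ncapg2 went from 741 to 1711 reads, a 2.36-fold rise by the authors' deposited table (authors' adjusted p = 1.41e-13). Ncaph2 had 4574 and 4750 reads and Ncapd3 3673 and 3655 reads, at 1.06-fold and 1.02-fold by the authors' deposited table (authors' adjusted p = 0.767 and 0.98). Ncaph2 shares 19.7% of its exon bases with Sco2 and 12.7% with Tymp, both on the opposite strand. The difference between the condensins was not tested, since members are not replicates.

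Cenpj and Cenpv carry the CENP name without a place in the complexes above, Cenpj being known for building centrioles and Cenpv for its place in the midzone of the dividing cell. Cenpj had 1669 and 1671 reads and Cenpv 2025 and 2125 reads, at 1.03-fold and 1.08-fold by the authors' deposited table (authors' adjusted p = 0.98 and 0.728). Neither was called.

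**Figure D2:**
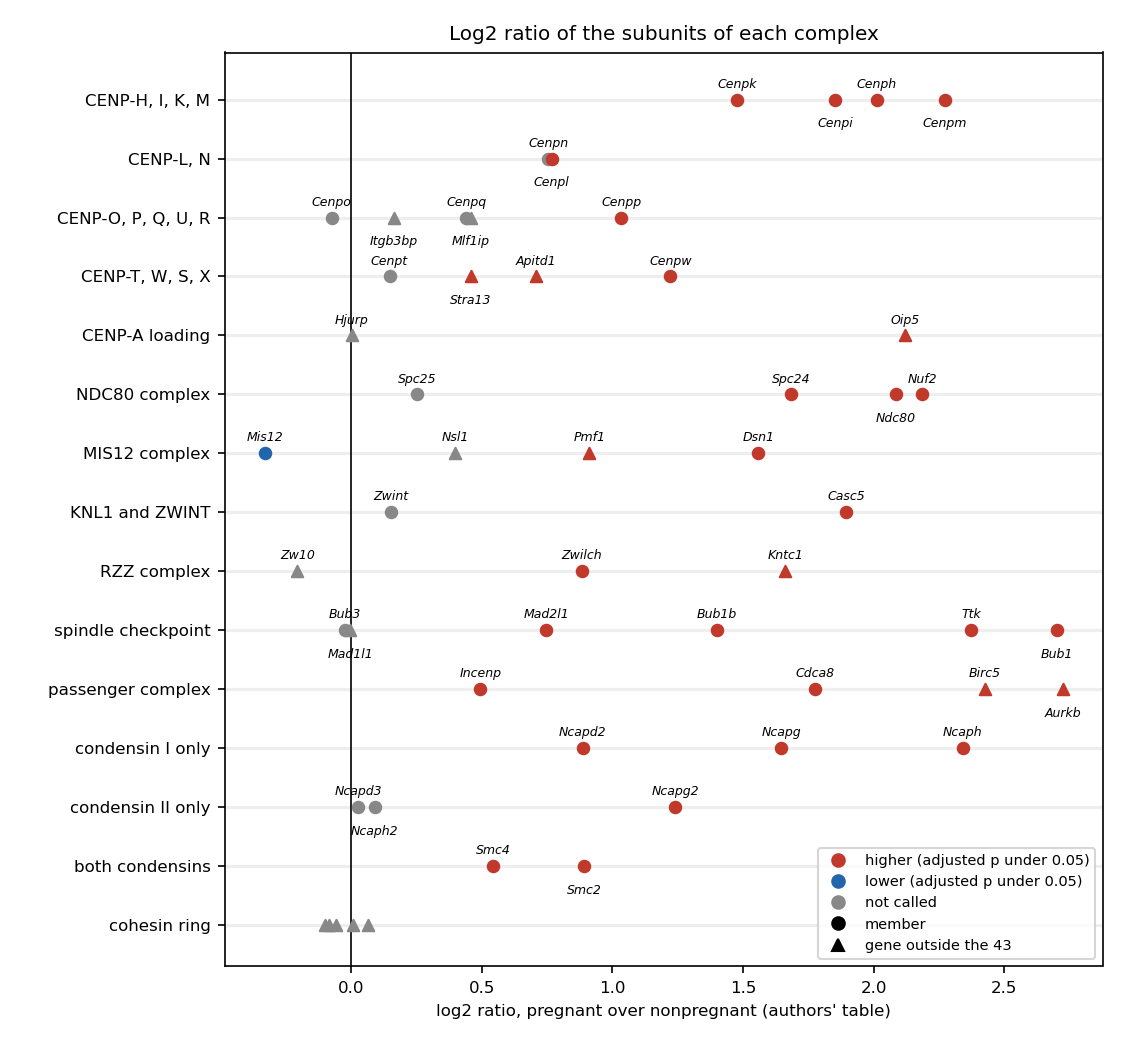
The horizontal axis is the log2 ratio of pregnant over nonpregnant islets in the authors' deposited table, and each row is a complex or a unit of one, with 1 point per gene, circles for the 43 members and triangles for other genes, coloured by the call; there are no error bars because only group means were used. Rows such as CENP-H, I, K, M and the passenger complex lie wholly to the right of 0, while the NDC80, MIS12, RZZ and checkpoint rows each hold a called gene above 0.7 and at least 1 gene that was not called.

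Genes that work beside the members were counted by the same rule. Of 21 other centromere and kinetochore genes, 12 rose (57.1%) and 0 fell by the authors' deposited table (median log2 ratio 0.71). Of all genes, 7.57% rose and 4.15% fell. By unadjusted p under 0.05 and a ratio below 1, 0 of them was lower. Oip5, which helps license CENP-A chromatin, rose 4.35-fold by the authors' deposited table. Of 17 cohesin genes and regulators, 5 rose (29.4%) and 2 fell (11.8%) by the authors' deposited table (median log2 ratio -0.06). The ring itself (Smc1a, Smc3, Rad21, Stag1 and Stag2) had log2 ratios between -0.10 and 0.06 by the authors' deposited table, with none of the 5 called (0 at an unadjusted p under 0.05). The regulators that rose were Cdca5 (sororin), the acetyltransferase gene Esco2, separase (Espl1) and the shugoshins Sgol1 and Sgol2, at 7.44-fold, 6.64-fold, 2.92-fold, 2.03-fold and 2.51-fold by the authors' deposited table. Esco1, the related acetyltransferase, fell to 0.78, as did Pds5b, by the authors' deposited table. Among the 15 listed anaphase-promoting complex genes (a ubiquitin ligase that the checkpoint restrains), Cdc20 alone was called, at 4.31-fold by the authors' deposited table. That is 6.67% of the list, near the 7.57% of all genes that rose.

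Rises were found mostly among members with low levels. Split at a mean of 1000 reads over both groups, a value chosen after the data were seen, 26 of the 30 members below it rose, against 9.21% of all genes with 10 to 1000 mean reads. Among the 13 members above it, 3 rose, against 9.8% of all genes at that level, 1 fell, against 6.43% of all genes at that level, and 9 were not called. The median log2 ratio was 1.60 below and 0.11 above that level. The median nonpregnant level was an RPKM of 0.185 for the 29 rising members and 5.51 for the 13 that were not called. The same medians were 0.721 and 5.28 in pregnant islets. Across the 43 members, level and log2 ratio had a Spearman rho of -0.73, and across 15384 genes with at least 10 mean reads and a length it was 0.088. The genes share their libraries, and the level and the ratio share both group means, so this is a description only. Even in pregnant islets, 21 of the 29 rising members stayed under an RPKM of 1, or 14 with the longest transcript as length in place of merged exons.

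**Figure D3:**
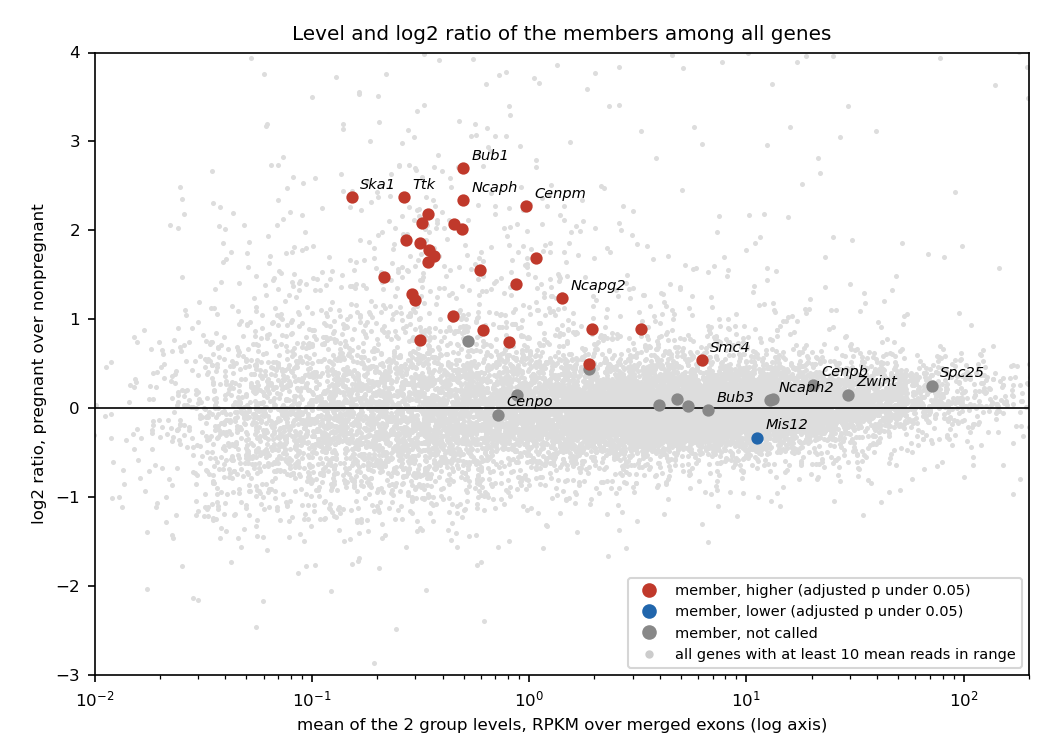
The horizontal axis gives the mean of the group levels as RPKM (log axis), the vertical axis the log2 ratio; large points are the 43 members coloured by call and small grey points all genes with at least 10 mean reads within the plotted range. Called rises gather at the low end, and members such as Bub3, Ncaph2, Cenpb, Zwint and Spc25 lie near 0 at higher levels, with Mis12 below 0.

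Markers of islet and other cells were read in the same means. At the adjusted p of 0.05, 7.57% of all genes rose and 4.15% fell. The share of all genes at an unadjusted p under 0.05 was not computed. All 9 beta cell markers were present, from 12518 to 11981604 reads in pregnant islets. Of these, 2 rose (Ins1 and G6pc2) with 0 lower at a median log2 ratio of 0.08 by the authors' deposited table. At an unadjusted p under 0.05, 2 were higher and 1 was lower (Slc2a2, at 0.83 by the authors' deposited table). Acinar markers, genes of the exocrine cells around islets, rose in 15 of 16 cases, with a median log2 ratio of 3.91 by the authors' deposited table, and they took 1.57% of the summed reads of pregnant and 0.125% of those of nonpregnant islets. No acinar marker was at 0 in either group. The part of acinar cells in the rises of the 29 members was not tested. Endothelial markers took 0.0440% and 0.0471% of mean reads, with 0 of 9 called (1 at an unadjusted p under 0.05). Macrophage markers took 0.0132% and 0.00931%, with Lyz2 alone called of 12 (4 higher and 0 lower at an unadjusted p under 0.05). That call is 8.33% of the list, near the 7.57% of all genes that rose. Lymphocyte markers took 0.00192% and 0.00190%, with 0 of 10 called (0 at an unadjusted p under 0.05), and Cd3e, Cd3d and Cd3g were at 2 to 5 reads. Mesenchymal markers took 0.0157% and 0.0150%, with Rgs5 alone called of 9 (1 at an unadjusted p under 0.05). Ductal markers took 0.0251% and 0.0243%, with Muc1 alone called of 7 (3 higher and 0 lower at an unadjusted p under 0.05). Schwann cell markers took 0.00150% and 0.00189%, with 0 of 5 called (1 at an unadjusted p under 0.05). Erythroid markers took 0.000981% and 0.000386%, with Hbb-b1 alone called of 6 (3 higher and 0 lower at an unadjusted p under 0.05). Of alpha cell markers 2 of 5, Ttr and Irx2, fell by the authors' deposited table. At an unadjusted p under 0.05, 3 of the 5 were lower, with Gcg added at 0.72 by the authors' deposited table. Of delta cell markers 1 of 3, Hhex, fell (1 at an unadjusted p under 0.05). Of PP cell markers 0 of 2 were called (0 at an unadjusted p under 0.05) by the authors' deposited table. Which cells held the transcripts of the members cannot be read from RNA of whole islets.

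**Figure D4:**
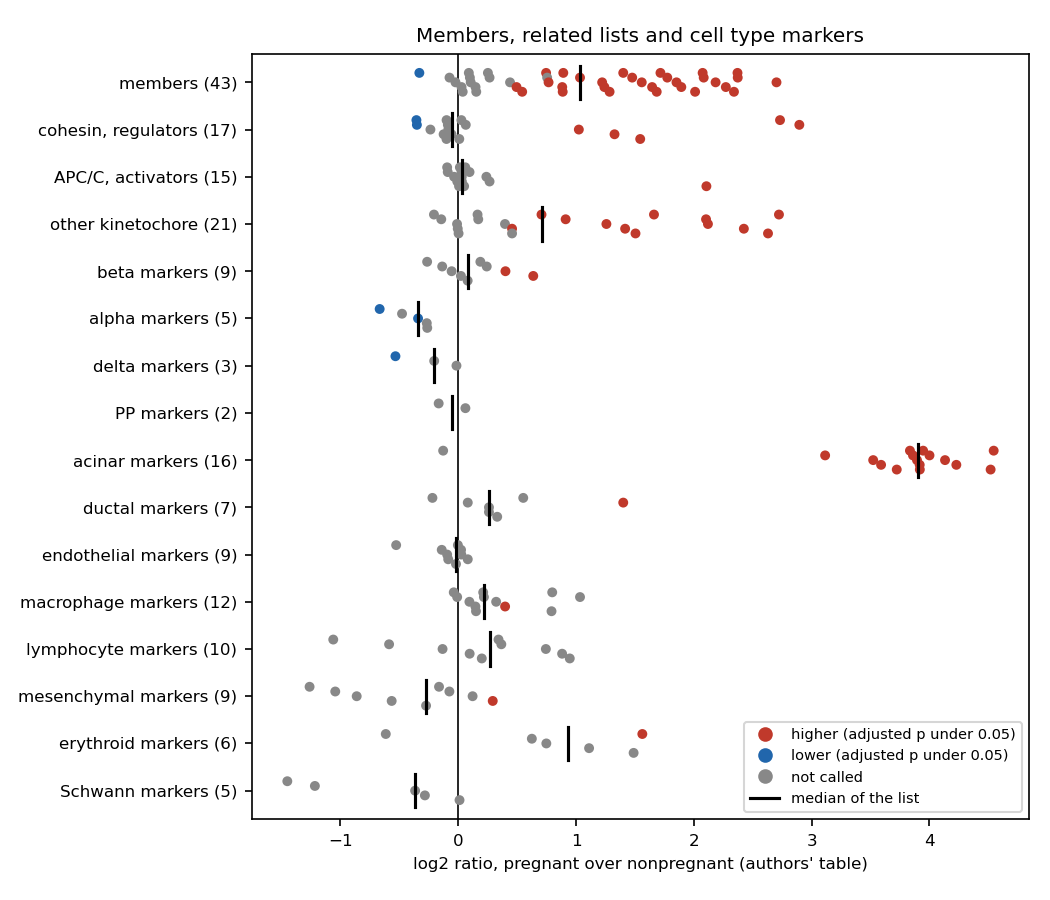
Each row shows the log2 ratios (pregnant over nonpregnant) of 1 gene list, with the number of genes in brackets, points coloured by the call and a black bar at the median of the list; points are shifted vertically only to keep them apart. The members spread from -0.33 (Mis12) and the other kinetochore genes from -0.21 (Zw10), both to above 2.5. The acinar markers lie above 3 except Bhlha15, and the endothelial markers lie around 0.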

How the data were processed

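The tools named are HTSeq 0.5.3p3, Bowtie, TopHat and TopHat2 2.0.12, with build GRCm38, per the submitters' processing notes. Strand handling, scaling before averaging and the tool of the authors' test are not given in the sources used here. Per the file headers, the table holds 1 mean of reads per gene and group, whole numbers made by the authors. The authors also deposited a fold change (a linear ratio, pregnant over nonpregnant), its log2, a p-value and its adjusted form. Nothing says what spread that p-value measures, and samples are not stated to be separate animals. The depth of single libraries is unknown.

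The table's 19963 lines hold 19940 genes by Ensembl ID. The 21 repeated genes had identical values and were counted once. Benjamini-Hochberg values recomputed from the p-values differed from the deposited ones by at most 0.00203. GENCODE M21 (GRCm38) held all 43 members and gave coordinates, overlaps and exon lengths. Levels (RPKM) are mean reads per kilobase of merged exons, scaled to the summed mean reads. No edgeR, DESeq2 or leave-one-out fit could be made from group means, so the authors' adjusted p under 0.05 served as the call. Every member is named, and 1 of the other listed kinetochore genes is counted but not reported singly here. The members and lists were chosen with earlier results of these data known, and the complexes were grouped after their values were seen. Python 3.11.15, pandas 2.3.3, numpy 2.4.6 and matplotlib 3.10.9 were used, and the adjustment was tested on simulated data.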

Additional observations from a re-analysis of the deposited data

How the results depend on the processing

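No paired analysis was possible because the table holds 1 mean per group and no value per sample, and for the same reason no sample could be left out and edgeR and DESeq2 were not run. The count of 29 rising members stayed within 1.5 times under the alternatives tried: 28 at an adjusted p under 0.01, 31 at an unadjusted p under 0.05, 22 with a log2 ratio of at least 1, and 23 without members whose exons overlap another gene, a setting chosen after seeing the data. The count of 1 falling member became 0 at an adjusted p under 0.01, 0 with a log2 ratio of at least 1 in size and 0 without members that overlap another gene, since Mis12 was left out or did not reach the bound. At an adjusted p under 0.01, Cenpw was also lost. At an unadjusted p under 0.05, Cenpb and Cenpn were added. Shares of all genes were not computed at an adjusted p under 0.01 or at an unadjusted p under 0.05. Counts at those bounds therefore stand without a background. The median log2 ratio of 1.034 was 0.989 from read means with a pseudocount of 1, 0.995 with 0.5, 0.936 from shares of summed reads, 1.222 without Cenpj and Cenpv, 1.222 without Spc25 and Zwint and 1.285 without overlapping members (the last 2 chosen after seeing the data). The shares lowered the median of all genes by 0.09. The sign of Ncapd3 turned to -0.007 from read means and -0.06 from shares, and that of Cenpj to -0.051 from shares. With the longest transcript as length, the median level was 0.581 in nonpregnant and 1.13 in pregnant islets, against 0.450 and 0.878. With 50 bases after the start included, the CHR was found in 19 members in place of 12 (21.7% of all genes in that window) and an E2F word in 14 in place of 9 (10.9%). Among genes with at least 10 mean reads, the shares in that window were 16.4% and 18.3%.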

Other observations

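Hjurp, which encodes the chaperone that deposits CENP-A at centromeres, differed in level from the genes it works with. Its authors' mean was 7973 reads in nonpregnant and 7800 in pregnant islets, a ratio of 1.00 in the authors' deposited table (adjusted p = 1). As reads per kilobase of exon scaled to the summed reads (RPKM), Hjurp stood at 11.3 and 10.7, against 0.176 and 0.405 for Cenpa and 0.166 and 0.693 for Oip5, in the order nonpregnant and pregnant. Its neighbours within 5 kilobases, Mroh2a and Trpm8, both lie on the opposite strand and were low. Mroh2a, 181 bases away, stood at an RPKM of 0.659 and 0.654. Trpm8, 27 bases away, had 3 and 1 reads in the authors' deposited table. Hjurp was picked after its values were seen, and why its level differs was not tested.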
